A study of Mus musculus with 13 samples.

Results

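The genes described here encode subunits of the transcription factor NF-kB, proteins that hold NF-kB signalling back, and nuclear cofactors of NF-kB related to its inhibitors (Nfkbiz and Bcl3). They are 10 of the 22180 genes measured, namely Rel, Rela, Relb, Nfkb2, Nfkbia, Nfkbib, Nfkbie, Nfkbiz, Bcl3 and Tnip1. They were chosen by name, with earlier results of these data known. Each had exactly 1 probe set with a single gene symbol on the Mouse Gene 2.0 ST array, so no choice between probe sets was needed. Nfkb1 was not analysed here.

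The arrays carried RNA of splenic dendritic cells, sorted as CD205+CD8+, of C57Bl/6 littermates labelled male and 6 weeks old. Every mouse, PBS mice included, carried for 5 days a B16 melanoma engineered to release Flt3L, which makes dendritic cells more numerous. The mice then received 50 ug of MDP (muramyl dipeptide, a piece of the bacterial cell wall that activates NOD2) in 100 ul of PBS into the peritoneum, or PBS alone. Spleens were collected 24 h later, digested with collagenase D, and the cells were sorted a second time as high or low for surface CD103, the integrin chain encoded by Itgae. The 13 arrays comprised PBS CD103 low (n = 4, replicates 1, 3, 4 and 6), PBS CD103 high (n = 3, replicates 4, 5 and 6), MDP CD103 low (n = 3, replicates 1, 2 and 3) and MDP CD103 high cells (n = 3, replicates 2, 3 and 4). All groups therefore came from tumour-bearing, Flt3L-expanded spleens, and no group without a tumour was analysed here. The labels do not say whether every array had a mouse of its own. The p-values set group differences against the spread between these arrays, which may in part be technical. If arrays of a group shared a mouse, that spread would understate the spread between mice, and p-values would be too small.

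NF-kB is a family of dimers that bind DNA and switch on genes of inflammation, survival and dendritic cell maturation. In resting cells, inhibitors of the IkB family keep the dimers in the cytoplasm until a kinase complex marks the inhibitor for destruction. A second, slower branch, the non-canonical pathway, runs through the processing of the Nfkb2 product p100 and releases dimers that contain RelB, which dendritic cells need for their development and maturation. Many of the inhibitors are themselves switched on by NF-kB, so that the pathway carries its own brake.

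Stretches of the promoters are shown because the genes described here are known to include targets of NF-kB itself. RefSeq promoter windows of build GRCm38.p6, each running from 250 bases before to 50 bases after a gene's start, were matched for 8 of the 10 genes. Both strands were searched for the kappaB motif, the 10-base sequence that NF-kB dimers bind, and 6 of the 8 genes held a match in any window, as 9.55% of all genes in the table did. Counted by window, 8 of their 10 windows and 8.46% of all 32851 windows held one. A looser pattern, 3 G followed by any 5 bases and then 2 C, occurred in any window of 7 of the 8 genes. It occurred in 50.8% of all windows, a share per window that is not directly comparable with a count of genes. Every kappaB match is also a match to the looser pattern. A match describes the letters only and is not a measured binding site. The lines below run 5′ to 3′ along the strand of the gene, with the match in capitals, and joined capitals longer than 10 bases are overlapping matches.
Rel: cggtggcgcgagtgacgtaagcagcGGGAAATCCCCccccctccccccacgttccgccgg
Nfkb2: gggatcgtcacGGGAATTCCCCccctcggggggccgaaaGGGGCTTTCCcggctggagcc
Nfkbia: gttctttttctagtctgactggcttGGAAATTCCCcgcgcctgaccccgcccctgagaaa
Nfkbie: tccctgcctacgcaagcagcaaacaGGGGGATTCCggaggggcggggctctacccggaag
Bcl3: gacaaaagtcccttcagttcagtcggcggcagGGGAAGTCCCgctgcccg
Tnip1: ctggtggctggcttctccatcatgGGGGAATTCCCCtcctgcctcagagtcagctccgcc
The stretches lie at chr11:23771027-23771086 on the minus strand for Rel, chr19:46304687-46304746 on the plus strand for the first listed start of Nfkb2, and chr12:55492642-55492701 on the minus strand for Nfkbia. Those of Nfkbie, Bcl3 and Tnip1 lie at chr17:45555569-45555628 on the plus strand, chr7:19822736-19822785 on the minus strand and chr11:54962963-54963022 on the minus strand. In these stretches the matches of Rel, Nfkb2, Nfkbia, Nfkbie and Tnip1 lie before the start, and that of Bcl3 just after it. Nfkb2 has 3 listed starts, and all 3 of its windows held a match, including in the second window one just after the start. The only match of the third window is that same site, since the windows overlap. The stretch shown for the first start holds a pair of separate matches. No kappaB match lay in the windows of Rela and Nfkbib.

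All 10 genes were measured above background in every array, taken as the 95th percentile of 1105 olfactory receptor genes, a log2 value of 5.12. The cells carried the markers of their sort: of 10 listed type 1 dendritic cell markers 9 were measured, none near background, and their mean ran from 10.50 to 11.04 over the arrays. Of the measured markers, 7 of 8 for neutrophils, 6 of 7 for T cells, 5 of 7 for B cells, 5 of 8 for natural killer cells, 4 of 5 for red cells and 5 of 8 for melanoma lay below that level. So did 3 of 8 for type 2 dendritic cells, 2 of 9 for monocytes and 1 of 8 for plasmacytoid dendritic cells. Itgae followed the CD103 sort within each treatment. It read 10.07 to 10.22 against 7.46 to 8.35 after PBS, and 11.11 to 11.51 against 9.64 to 10.68 after MDP. Its mean was also higher after MDP than after PBS, at 10.13 against 7.92 in CD103 low and 11.35 against 10.15 in CD103 high cells. The Itgae values of MDP CD103 low and PBS CD103 high arrays overlapped. Whether MDP changed which cells were sorted as high or low was not tested. Comparisons of MDP with PBS within a subset therefore describe the cells as sorted. The label of sex did not hold for all arrays: Xist read 10.98 to 11.21 in 7 arrays and 4.47 to 6.69 in the other 6, in which Eif2s3y, Kdm5d and Uty, genes of the Y chromosome, averaged 7.85 to 8.21 against 3.5 to 4.39. Both kinds of array occurred in all 4 groups. One array stood apart within its group, MDP CD103 low replicate 1, which had the highest value of its group for all 10 genes and the highest of all 13 arrays for 6 of them.

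In CD103 high cells, the arrays taken after MDP read below those taken after PBS for every one of the 10 genes. The difference passed the test for 3 of them, the non-canonical subunit Relb, the inhibitor Nfkbib and the A20-binding inhibitor Tnip1, and all 3 fell. In the fit across all genes (limma, two-sided, Benjamini-Hochberg over 22180 genes, threshold of 0.05), 0.397% of genes were called lower in this comparison, and 1.82% in either direction. The median difference of the 10 genes was -0.40 on the log2 scale, beside -0.01 over all genes. Groups of arrays that did not overlap, with MDP the lower, were seen for 10 of 10 genes and for 10% of all genes.

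**Figure D1:**
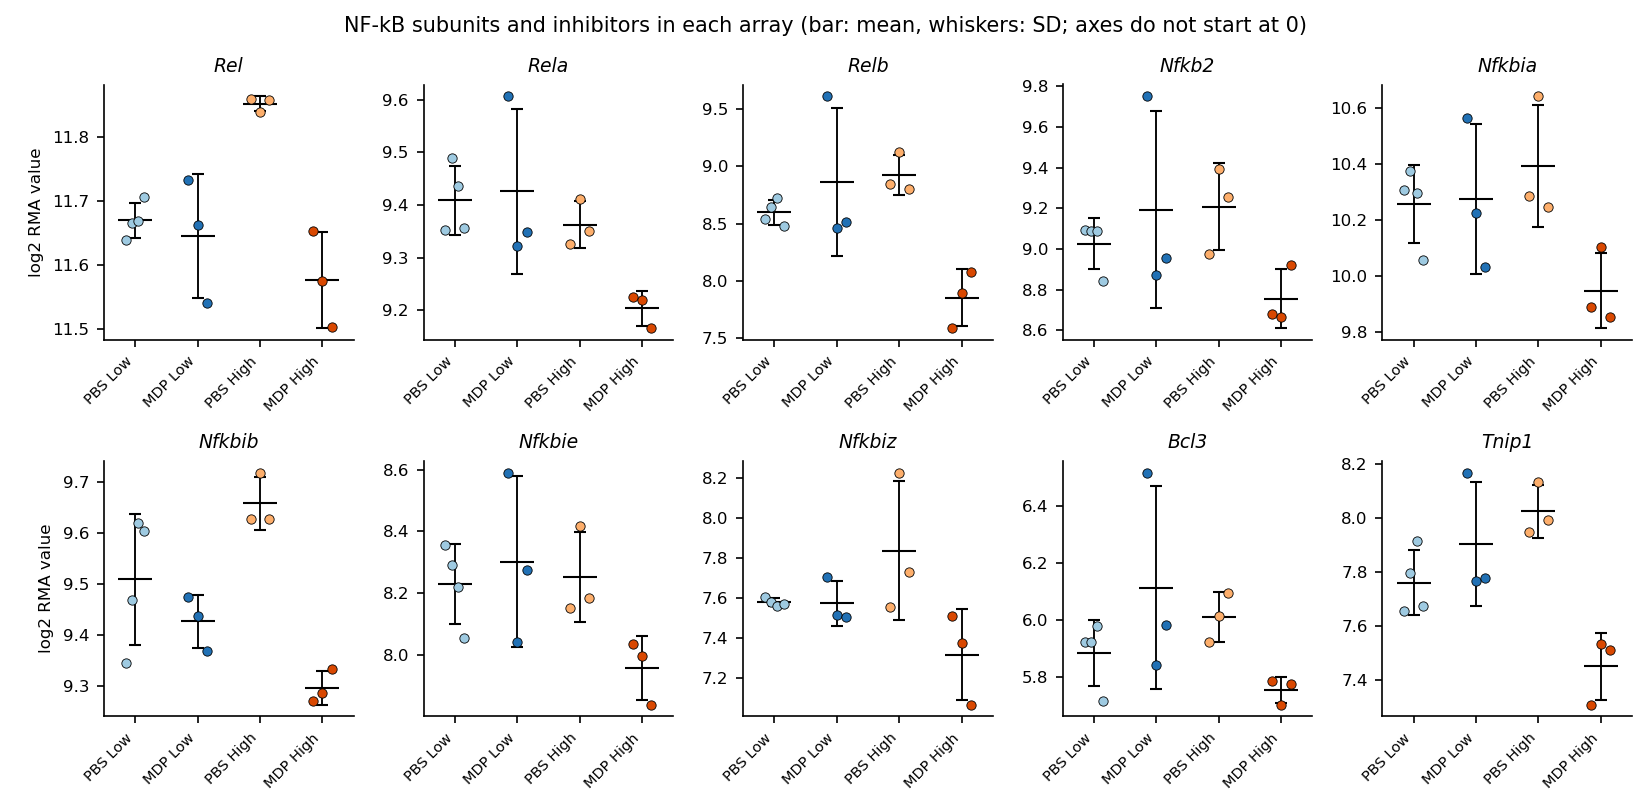
Log2 expression of each of the 10 genes on every array, 1 panel per gene, with the 4 groups along the horizontal axis, a point per array, a bar at the group mean and whiskers of 1 SD, on vertical axes that do not start at 0. The MDP CD103 high arrays lie below all PBS CD103 high arrays in every panel, and the topmost MDP CD103 low point is replicate 1 throughout.

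Relb encodes the subunit that carries the non-canonical pathway. Its log2 values were 7.59, 7.90 and 8.08 after MDP in CD103 high cells, against 8.85, 9.13 and 8.81 after PBS. The groups did not overlap, and the highest MDP array lay well below the lowest PBS array. The difference was -1.07 ± 0.24 (SE; 95% interval -1.59 to -0.55; adjusted p = 0.0413), or 2.10-fold lower. It was the 26th largest fall of all genes and the largest of the 10.

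Nfkb2 encodes p100, the partner and inhibitor of RelB. Its values were 8.68, 8.66 and 8.92 after MDP and 8.97, 9.39 and 9.25 after PBS. The groups were separate but close, since the highest MDP array and the lowest PBS array nearly met. The difference of -0.45 ± 0.19 did not pass the test (adjusted p = 0.330).

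Rel encodes c-Rel, a subunit of the canonical pathway. Its values were 11.65, 11.57 and 11.50 after MDP against 11.86, 11.84 and 11.86 after PBS. The PBS arrays were nearly equal and the MDP arrays all lay below them. The difference of -0.28 ± 0.07 missed the threshold (95% interval -0.43 to -0.12; adjusted p = 0.0729).

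Rela encodes p65, the main activating subunit of the canonical pathway. It read 9.23, 9.22 and 9.17 after MDP and 9.33, 9.41 and 9.35 after PBS, and had the smallest difference of the 10 genes. That difference was -0.16 ± 0.08, with a 95% interval from -0.34 to 0.019 and an adjusted p of 0.444.

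Among the classical inhibitors, which hold dimers in the cytoplasm, Nfkbib (IkB-beta) was the one that passed. It read 9.27, 9.29 and 9.33 after MDP against 9.63, 9.72 and 9.63 after PBS. The spread within each group was small beside the gap. The difference was -0.36 ± 0.08 (95% interval -0.53 to -0.19; 1.28-fold lower; adjusted p = 0.0391).

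Nfkbia (IkB-alpha), the fast-acting inhibitor that NF-kB induces, read 9.89, 10.10 and 9.85 after MDP and 10.29, 10.64 and 10.25 after PBS. Its difference of -0.44 ± 0.14 was larger than that of Nfkbib but so was its spread, and it did not pass (adjusted p = 0.172). Nfkbie (IkB-epsilon) read 8.04, 8.0 and 7.84 against 8.15, 8.42 and 8.19, a difference of -0.29 ± 0.13 (adjusted p = 0.348). For Nfkbie the highest MDP array was close to the lowest PBS array.

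Nfkbiz and Bcl3 encode atypical IkB proteins, which act in the nucleus as cofactors of NF-kB dimers. Nfkbiz read 7.51, 7.37 and 7.07 after MDP and 7.55, 8.23 and 7.73 after PBS, a difference of -0.52 ± 0.15 (adjusted p = 0.119). Its groups nearly touched, and PBS replicate 5 stood above the other PBS arrays. Bcl3 read 5.79, 5.70 and 5.77 against 5.92, 6.01 and 6.10, a difference of -0.26 ± 0.14 (adjusted p = 0.475).

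Tnip1 encodes ABIN1, which binds ubiquitin chains and the editing enzyme A20 (Tnfaip3) and restrains signalling above the IkB proteins. It read 7.31, 7.54 and 7.51 after MDP and 7.95, 8.13 and 7.99 after PBS. No array of one group came near the other. The difference was -0.57 ± 0.12 (95% interval -0.82 to -0.32; 1.49-fold lower), with the smallest adjusted p of the 10 genes (0.0260).

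**Figure D2:**
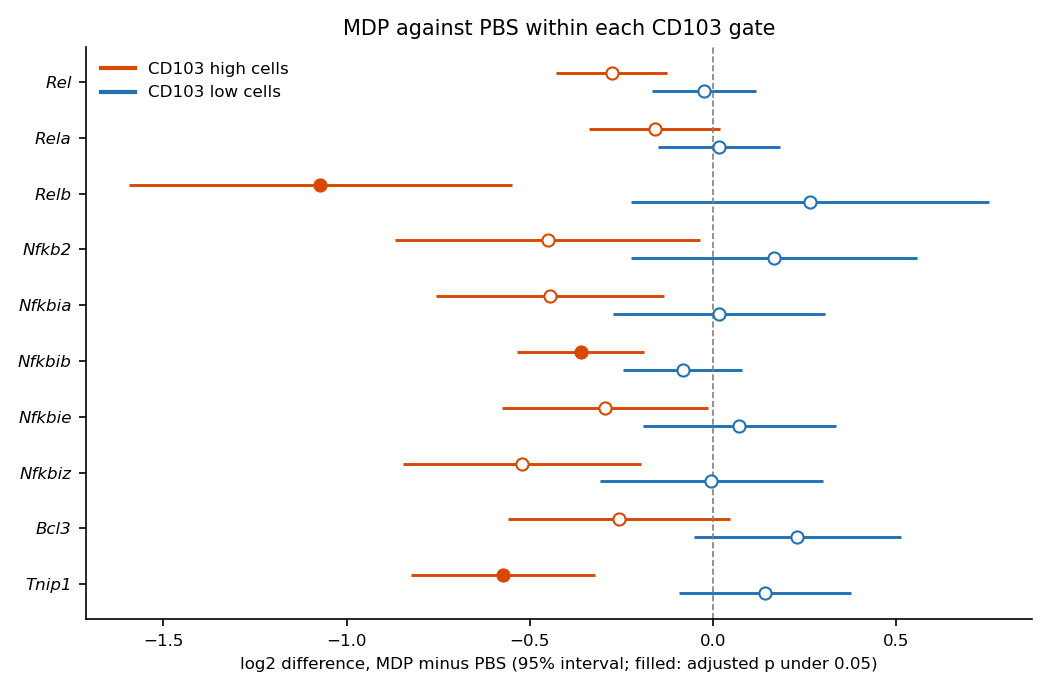
Log2 difference of MDP against PBS for each of the 10 genes, within CD103 high and within CD103 low cells, as the estimate with its 95% interval from the fit, with filled points for an adjusted p under 0.05. In CD103 high cells all 10 estimates lie below 0, from -0.16 for Rela to -1.07 for Relb, while in CD103 low cells they lie from -0.08 to 0.27 and every interval spans 0.

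The 3 calls rest on few arrays. None of the 3 passed when MDP CD103 high replicate 2, 3 or 4, or PBS CD103 high replicate 5 or 6, was left out, and 1 passed without PBS CD103 low replicate 3. Over all 13 arrays left out in turn, Tnip1 passed in 8 cases, Nfkbib in 4 and Relb in 3. With the 4 pairs of arrays that share treatment and replicate number as a random block, Relb (adjusted p = 0.0489) and Tnip1 (0.0319) passed and Nfkbib did not (0.0508). With a term for the 2 classes of array by Xist and Y-linked genes, Relb did not pass (adjusted p = 0.0555), while Nfkbib (0.0496) and Tnip1 (0.0338) did. Within the class of high Xist (2 arrays against 2) all 10 genes lay below 0, with a median of -0.38, and so they did in the other class (1 against 1), with a median of -0.33. The Relb difference was -1.0 in the first class and -1.22 in the second.

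Genes that mark mature, CCR7-type dendritic cells moved with the same arrays. Of 15 such markers besides Relb, 13 were measured and 1, Ccl17, lay below background level. All 13 were below 0 in CD103 high cells after MDP, with a median of -0.44, and 2 passed the test. Over all genes in this comparison 53.7% lay below 0, with a median of -0.01, and 0.397% were called lower. The mature markers are described by array next. Their mean level was 7.10 to 7.20 in MDP CD103 high arrays, 7.56 to 7.87 in PBS CD103 high, 7.48 to 7.64 in PBS CD103 low and 7.47 to 8.37 in MDP CD103 low arrays, where 8.37 was replicate 1. In bulk RNA, fewer cells of a type and less RNA per cell cannot be told apart. Of these 13 markers, 8 are also in the pathway lists used below, 5 of them in that of NF-kB targets. The 2 that passed, Ccr7 and Birc3, are among the 8 and are given again there, so they are not separate results. The part of the markers in the result was not tested. Of 8 markers of plasmacytoid dendritic cells, 2 fell in the same comparison, with a mean of 6.49 to 6.58 after MDP and 6.74 to 6.83 after PBS, and their part in the result was not tested either.

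**Figure D3:**
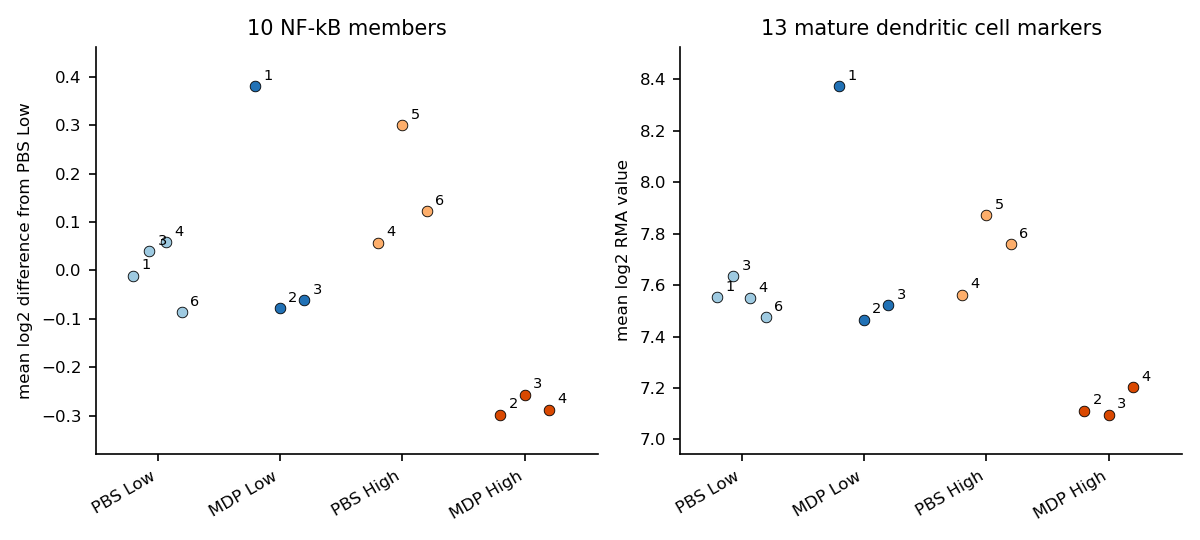
Left panel, mean log2 difference of the 10 genes from their PBS CD103 low means, and right panel, mean log2 value of the 13 mature dendritic cell markers other than Relb, with 1 point per array, numbered by replicate, and the 4 groups along the horizontal axes. The MDP CD103 high arrays are the lowest in both panels, at -0.30, -0.26 and -0.29 on the left, and MDP CD103 low replicate 1 is the highest in both, at 0.38 on the left and 8.37 on the right.

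In CD103 low cells, MDP left no detectable difference in any of the 10 genes. None passed the test in limma and none had an unadjusted p under 0.05, while 0.00451% of all genes, a single gene, were called in either direction. The differences ran from -0.08 for Nfkbib to 0.27 for Relb, with 7 above 0 and 3 below and a median of 0.04. The groups of arrays overlapped for all 10 genes, whereas they were separate, with MDP higher, for 2.98% of all genes, and with MDP lower for 2.52%.

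Relb had the largest difference and a wide spread there. Its values were 9.61, 8.46 and 8.52 after MDP in CD103 low cells, against 8.54, 8.65, 8.73 and 8.48 after PBS. Replicate 1 alone lay above the PBS arrays, and the other two MDP arrays were at the lower end of them. The 95% interval of the difference was -0.22 to 0.75 (adjusted p = 0.866). Nfkb2 was similar, with replicate 1 above the PBS arrays and the other two within their range, at 9.75, 8.87 and 8.95 after MDP and 9.09, 9.09, 9.09 and 8.84 after PBS. Bcl3 read 6.52, 5.84 and 5.98 against 5.92, 5.92, 5.98 and 5.72, with replicate 1 far above the PBS arrays and replicate 3 level with the highest of them. Without replicate 1 the median of the 10 differences was -0.07, with 2 above 0 and 8 below, and with any other array left out it lay between 0.01 and 0.14.

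Between the subsets after PBS, CD103 high cells tended to read higher, but no gene passed the test. The differences were above 0 for 9 genes, all but Rela at -0.05, with a median of 0.16. In limma, 0 of the 10 genes and 0.0766% of all genes passed in either direction, and 2 of the 10 had an unadjusted p under 0.05. These were Rel, at 0.18 ± 0.07 (adjusted p = 0.467), and Tnip1, at 0.26 ± 0.11 (adjusted p = 0.541).

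Arrays of the 2 subsets did not overlap, with CD103 high the higher, for 4 genes after PBS, namely Rel, Relb, Nfkbib and Tnip1, and for 4.48% of all genes. Rel read 11.86, 11.84 and 11.86 in CD103 high cells and 11.64, 11.67, 11.67 and 11.71 in CD103 low cells. Nfkbib read 9.63, 9.72 and 9.63 against 9.35, 9.47, 9.62 and 9.60, so that the lowest high array barely cleared the highest low array. For Relb the difference was 0.33 ± 0.23 (adjusted p = 0.755). Without PBS CD103 high replicate 5, which was the highest of its group for 8 genes, 8 genes stayed above 0, with a median of 0.10. Of the 8 plasmacytoid dendritic cell markers 2 were higher in CD103 high cells, Pacsin1 and Cd300c, with a mean over the list of 6.74 to 6.83 against 6.44 to 6.54. The mature dendritic cell markers lay above 0 in 12 of 13 cases with none past the test. The type 2 dendritic cell markers lay below 0 in 7 of 8, with none past the test. Their mean was 4.79 to 4.85 against 4.80 to 5.15, near or below the background level of 5.12, and 3 of the 8 lay below it. Over all genes in this comparison 51.1% lay below 0. The part of these marker lists in the result was not tested.

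**Figure D4:**
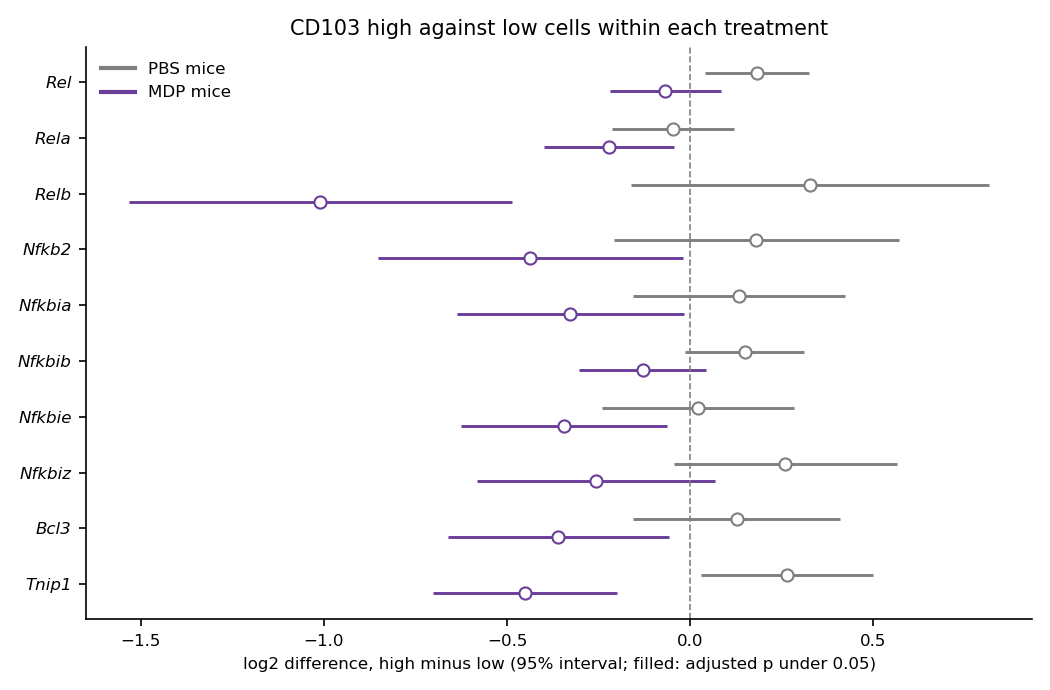
Log2 difference of CD103 high against CD103 low cells for each of the 10 genes, within PBS and within MDP mice, as the estimate with its 95% interval. After PBS 9 of 10 estimates lie above 0, after MDP all 10 lie below 0, and none passed the test over all genes.

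After MDP the subsets lay the other way round. CD103 high cells read below CD103 low cells for all 10 genes, with a median of -0.34, and 7 genes had an unadjusted p under 0.05. None passed after adjustment over all genes in limma, where 0.0496% of genes were called lower and 0.523% in either direction. The arrays were separate for 6 genes, Rela, Relb, Nfkbib, Nfkbie, Bcl3 and Tnip1, and for 7.93% of all genes.

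The largest of these differences was that of Relb, at -1.01 ± 0.24 (95% interval -1.53 to -0.49; adjusted p = 0.102). Tnip1 was at -0.45 ± 0.12 (adjusted p = 0.133), with 7.31, 7.54 and 7.51 in CD103 high cells and 8.17, 7.77 and 7.78 in CD103 low cells. Without MDP CD103 low replicate 1 the median was -0.17 and Relb was at -0.64. The mature dendritic cell markers lay below 0 in 13 of 13 cases in this comparison, with a median of -0.51, and 1 passed, Ccr7. Type 2 dendritic cell markers lay below 0 in 7 of 8 cases and 1 passed, although 3 of the 8 were below background level. Over all genes 54.3% lay below 0 and 0.0496% were called lower. Replicate 1 enters these marker values too, and the part of the markers in the result was not tested.

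Some arrays of the 2 subsets carry the same treatment and replicate number, and the labels do not state what the number means. For the numbers shared after MDP, replicate 2 had all 10 genes lower in CD103 high cells, with a median of -0.13, and replicate 3 had 8 lower, with a median of -0.19. For those shared after PBS, replicate 4 had 6 genes lower and 4 higher, with a median of -0.01, and replicate 6 had 9 higher, with a median of 0.18. The Relb difference was -0.87 and -0.62 in the MDP pairs and 0.12 and 0.32 in the PBS pairs.

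The effect of MDP in CD103 high cells minus that in CD103 low cells was below 0 for all 10 genes, with a median of -0.47, but no gene passed the test of this difference. Without MDP CD103 low replicate 1 the median was -0.30. In that test 0.0721% of all genes were called in either direction, and 8 of the 10 genes had an unadjusted p under 0.05. Tnip1 was at -0.72 ± 0.16 (adjusted p = 0.105), Relb at -1.34 ± 0.33 (adjusted p = 0.144) and Nfkbib at -0.28 (adjusted p = 0.428). The subsets are therefore not shown to respond differently for any single gene of the 10.

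In the order of the group means, MDP CD103 high was lowest for all 10 genes. The highest mean was that of PBS CD103 high for 7 genes and of MDP CD103 low for Rela, Nfkbie and Bcl3. No gene had neighbours in this order that passed the test against each other, since every comparison of 2 groups other than MDP CD103 high against PBS CD103 high gave 0 genes, and where those 2 groups were neighbours, for Rela, the difference did not pass. Against PBS CD103 high, MDP CD103 low cells had 0 of 10 genes past the threshold, beside 0.289% of all genes, and 2 with an unadjusted p under 0.05, Rel at -0.21 (adjusted p = 0.271) and Nfkbib at -0.23 (adjusted p = 0.281). The same 2 were the genes whose arrays did not overlap, with MDP lower, as for 7.45% of all genes. MDP CD103 high against PBS CD103 low also gave 0 of 10, beside 0.406% of all genes, although 6 had an unadjusted p under 0.05 and all 10 lay below 0, with a median of -0.27. Their arrays did not overlap, with MDP lower, for 6 of the 10 and for 4.39% of all genes. Relb was at -0.74 ± 0.23 there (adjusted p = 0.265).

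**Figure D5:**
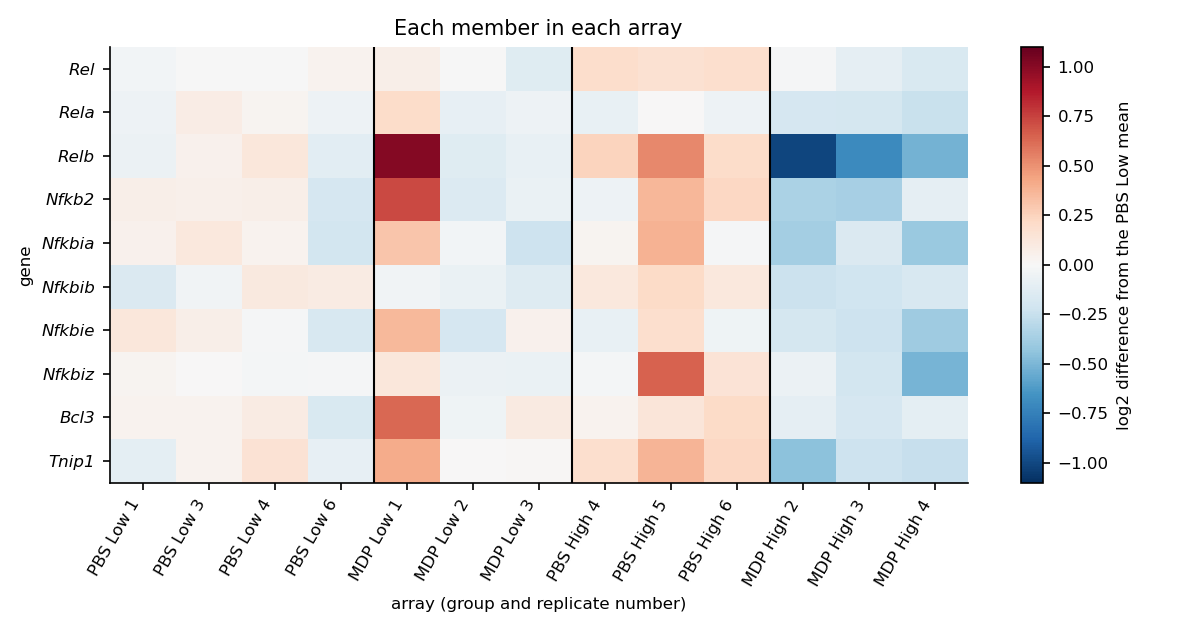
Deviation of each of the 10 genes (rows) on each of the 13 arrays (columns, by group and replicate) from that gene's PBS CD103 low mean, on the log2 scale shown by the colour bar. The MDP CD103 high columns are below 0 for every gene, and the largest positive value is that of Relb on MDP CD103 low replicate 1, at 1.01.

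The genes whose values over the 13 arrays were most like those of the 3 genes that fell were taken from 8653 genes with a mean of at least 6. For Relb they were Gadd45b (Pearson r = 0.985), Sdhaf1 (0.981) and Anxa3 (0.972). For Tnip1 they were Relb (0.960), Sdhaf1 (0.953) and Tnfaip3 (0.946), and for Nfkbib they were Pink1 (0.954), Jarid2 (0.917) and Epb41l4aos (0.916). These are descriptions of arrays that share group differences and the high array MDP CD103 low replicate 1.

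The wider pathway was followed through 4 lists that leave out the 10 genes. Of 24 kinases, adaptors and ubiquitin ligases that activate NF-kB measured of 29 listed, 1 fell in CD103 high cells after MDP. This was Birc3, at -0.49 ± 0.09 (adjusted p = 0.0192). It is a ubiquitin ligase listed with the activators, although it also keeps the non-canonical kinase low. Birc3 read 9.19, 9.08 and 9.16 after MDP and 9.51, 9.67 and 9.71 after PBS. In all 18 of the 24 lay below 0, with a median of -0.16. Over all genes in this comparison 53.7% lay below 0, with a median of -0.01, and 0.397% were called lower.

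None of 16 receptors that feed NF-kB passed in limma, and 11 lay below 0 with a median of -0.04, beside 53.7% of all genes. The smallest adjusted p was that of Tnfrsf11a, the receptor RANK (-0.35; adjusted p = 0.0529), followed by Cd40 (-0.82; adjusted p = 0.15). Nod2, the sensor of MDP, read 6.54 to 7.03 over the 13 arrays and did not pass in CD103 high cells (adjusted p = 0.986).

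Among 21 other negative regulators, measured of 23 listed, 14 lay below 0, with a median of -0.03, beside 53.7% of all genes. In this list 1 gene fell, beside 0.397% of all genes called lower. It was Tnfaip3, which encodes A20, the partner of Tnip1, at -0.63 ± 0.13 (adjusted p = 0.0338). It read 8.78, 9.0 and 8.90 after MDP and 9.39, 9.71 and 9.46 after PBS, so that A20 and its binding partner were both lower in the same arrays.

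Of 34 NF-kB target genes measured, 6 fell in CD103 high cells after MDP and none rose, while 0.397% of all genes were called lower. By smallest p the 6 were led by Ccr7, a chemokine receptor of dendritic cells on their way to lymph nodes (-1.80; adjusted p = 0.0194), and Gadd45b, a stress and survival gene (-1.99; adjusted p = 0.0271). Ccr7 read 7.41, 7.24 and 7.85 after MDP against 9.04, 9.58 and 9.29 after PBS. Gadd45b read 7.24, 7.68 and 8.11 against 9.31, 9.93 and 9.77. The others were the chemokine genes Ccl5 and Cxcl16, the costimulatory gene Cd80 and the cytokine gene Il1b, with differences from -0.49 to -2.24. In all, 28 of the 34 lay below 0 with a median of -0.32, beside 53.7% of all genes. The count of 6 was 0 without MDP CD103 high replicate 3 or PBS CD103 high replicate 5 or 6, 1 without MDP CD103 high replicate 2, 3 without any 1 of MDP CD103 high replicate 4, PBS CD103 high replicate 4 and PBS CD103 low replicates 1, 3 and 4, and 11 without MDP CD103 low replicate 1. Birc3 and Tnfaip3 did not pass either without MDP CD103 high replicate 2 or 3 or PBS CD103 high replicate 5 or 6, nor did Tnfaip3 without MDP CD103 high replicate 4 or PBS CD103 low replicate 1 or 3.

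In CD103 low cells no gene of the 4 lists passed after MDP, and 28 of the 34 targets lay above 0, with a median of 0.15. Of all genes 48.5% lay below 0 there, and 0.00451% were called in either direction. MDP CD103 low replicate 1 read 11.19 for Ccl5 and 10.37 for Ccr7. Replicates 2 and 3 read 9.10 and 9.24 for Ccl5 and 8.58 and 8.84 for Ccr7. Of the targets named above, only Il1b was not highest of its group in replicate 1. That array enters every value of this paragraph that uses MDP CD103 low cells, and target medians without it are not given. After MDP the subsets differed for 2 targets, Ccl5 (-2.88; adjusted p = 0.0221) and Ccr7 (-1.76; adjusted p = 0.0437), both lower in CD103 high cells. In all, 33 of the 34 lay below 0, with a median of -0.31. Over all genes there, 54.3% lay below 0 and 0.0496% were called lower. With 1 array left out in turn, Ccl5 passed in 11 of 13 cases and Ccr7 in 2. No gene of the other 3 lists passed there. Between the subsets after PBS no gene of the 4 lists passed, and 26 targets lay above 0, with a median of 0.13. The difference of the MDP effects passed for none of them either. For the targets its median was -0.47, and the smallest adjusted p were those of Ccl5 (-3.11; adjusted p = 0.0880) and Ccr7 (-2.14; adjusted p = 0.102).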

How the data were processed

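The authors deposited log2 expression values, made with RMA in Affymetrix Expression Console per the submitters' processing notes. No version is given in the sources used here. RMA makes array distributions alike, so a change shared by most genes would be removed. Of 41345 probe sets, 23521 carried 1 gene symbol, 1814 several, and 16010 were not listed. They gave 22180 genes, 1 probe set each (the highest mean), of which 21994 matched RefSeq. No filter on low values was set.

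Groups came from the sample titles. A model with a mean for each of the 4 groups was fitted to all 13 arrays with limma 3.58.1 under R 4.3.3 (lmFit, then contrasts.fit and eBayes; 9 residual and 3.86 prior degrees of freedom), and the fit was tested on simulated data. Tests were two-sided, with Benjamini-Hochberg over all genes and a threshold of 0.05. With 3 or 4 arrays per group, the number of arrays limits the precision. The comparisons share groups, and so arrays. Sequence windows came from RefSeq. Other steps used Python 3.11.15 with numpy 2.4.6, pandas 2.3.3 and matplotlib 3.10.9.

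The 10 genes and the lists were chosen with earlier results of these data known. All 10 genes are reported in every comparison. From each pathway list, the text names the genes of smallest p, up to 2 in each direction among those that passed, and otherwise 2 in all. Ccl5, Cd80, Cxcl16 and Il1b were named among the 6 targets in CD103 high cells after their values were seen. The 3 genes most like each gene that passed were ranked by Pearson r. Whether replicate numbers pair arrays was checked by correlating deviations from group means. Over the 4 pairs of 1 treatment and number r was 0.12 to 0.29, and over the 5 pairs across treatments -0.13 to 0.40. These ranges overlap, and arrays of different numbers were not correlated, so the check does not settle the pairing. The 4 pairs of 1 treatment all shared the Xist class, while only some of those across treatments did. Pairing within a treatment, used for the random block, is therefore an assumption. What the numbers mean is not stated.

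Alternatives were array centring, means of probe sets, a minimum mean of 6, only the arrays compared, replicate blocks, a term for the Xist classes, a variance trend with robust fitting, and each array left out in turn.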

Additional observations from a re-analysis of the deposited data

Results flagged for a closer look

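Groups of 4 arrays were examined for a value far from the others, for the 10 genes and the named genes of the lists. Of 35 such groups, 2 held one, and chance gives about 1 in 20. Nfkb2 in PBS CD103 low replicate 6 was the lowest of its group, at 8.84, while the other 3 arrays read 9.09. Cd40 in PBS CD103 low replicate 4 was the highest of its group, at 8.11.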

How the results depend on the processing

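The differences of the 10 genes were recomputed in every comparison, except that between MDP CD103 low and PBS CD103 high cells only Rel and Nfkbib, the genes given there, were counted. Of these 1292 values, 1236 kept their direction and side of the threshold, and 31 no longer passed. A further 8 newly passed and 17 changed sign, of which 0 had passed. The 31 all belong to the 3 genes that passed in CD103 high cells after MDP. There Relb passed in 9 of 21 alternatives, Nfkbib in 8 and Tnip1 in 15. Most of the 1236 are differences that passed in neither fit, and some estimates could not move. Each of the 10 genes has 1 probe set, and an array outside a comparison does not enter its estimate. In CD103 high cells after MDP the count past the threshold was 3, and it was 5 of 10 with a minimum mean of 6, when 767 genes passed in place of 403, and 0 to 3 with 1 array left out. The replicate block with the number as a fixed term left 0 genes of all, and Relb, Nfkbib and Tnip1 at adjusted p of 0.539, 0.648 and 0.550. Whether these numbers pair arrays across treatments is not stated, and their correlations across treatments ran from -0.13 to 0.40. The random replicate block for treatment and number is given above and changed no other call of the 10 genes. Over all settings adjusted p ran from 0.0023 to 0.539 for Relb, from 0.0098 to 0.648 for Nfkbib and from 0.0067 to 0.550 for Tnip1, and their sign never changed. With a minimum mean of 6, 1 gene passed between the subsets after MDP (Relb) and 1 in the difference of MDP effects (Tnip1). MDP CD103 high against PBS CD103 low gave 1 (Relb) when only their arrays were fitted, and 0 to 1 with 1 array left out, the 1 being without MDP CD103 low replicate 1. Every other count was 0 in every setting. For the lists in CD103 high cells after MDP, activators went from 1 to 0 with only the arrays compared, 3 with the variance trend, 5 with a minimum mean of 6 and 0 with the fixed replicate block, and other negative regulators from 1 to 0, 1, 2 and 0. Targets went from 6 to 3 with arrays centred and 0 with the fixed block. Leaving out 1 array gave 0 to 3 activators, 0 to 2 other negative regulators and 0 to 11 targets. Between the subsets after MDP, the 2 targets became 0 with only the arrays compared or the fixed block, 1 with the Xist class term, and 0 to 4 with 1 array left out. For MDP in CD103 low cells, Nfkbiz was 0.0069 with arrays centred, and Nfkbia was -0.047 with the fixed and -0.0017 with the random replicate block. With 1 array left out, that comparison ran from -0.069 to 0.028 for Rel, -0.073 to 0.069 for Rela, -0.11 to 0.47 for Relb, -0.11 to 0.33 for Nfkb2, -0.13 to 0.14 for Nfkbia, -0.072 to 0.20 for Nfkbie and -0.069 to 0.030 for Nfkbiz. For the subsets after PBS, Nfkbie ran from -0.062 to 0.071. The causes were not tested. The difference of MDP effects uses all groups, so fitting only the arrays compared was not run for it.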
